A study of Mus musculus with 6 samples.

Results

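The cells described here are the trophoblast cells of mouse embryos collected at embryonic stage E5.25, set against those of E5.0. They were chosen by measured values of these same libraries: the unique molecular identifiers (UMIs, the counted RNA molecules) of a cell had to meet a rule on 3 sums per 10000 UMIs. The trophoblast sum (Tfap2c, Gata3, Rhox6, Rhox9, Phlda2 and Wnt7b) had to be at least 5, the endoderm sum (Cubn, Lrp2, Dab2 and Amn) under 10, and the epiblast sum (Pou5f1, Slc7a3, Pim2 and L1td1) below the trophoblast sum. Cells with 3 or more UMIs of the giant cell hormone genes Prl3d1, Prl3d2 and Prl3d3 were left out. Of the 9542 cells kept in the 2 libraries, 1411 met the rule, 653 of them at E5.0 and 758 at E5.25. The 6 libraries of the series hold 42328 barcodes, and 21856 of these passed a floor of 1500 genes per cell and a ceiling of 15% for mitochondrial UMIs.

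The series is a single-cell RNA time course of whole mouse embryos from E3.5 to E5.5, with 1 library per stage. Both stages compared here came from B6SJLF1/J mothers aged 7 weeks and B6CBAF1/J fathers, and the embryos were dissected out of the uterus before they were dissociated to single cells. The labels give no treatment or genotype that differs between the stages, and the cells of both were not passed through the 20 µm filter that the other stages but E4.75 received. How many embryos went into a library was not given in the sources used here. With 1 library per stage, stage cannot be told apart from library, batch or the set of embryos that entered it, so no p-value is given, and every interval below is a 95% interval that covers counting error only.

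Trophoblast is the lineage that forms the fetal part of the placenta. In the implanting mouse embryo the trophoblast next to the epiblast grows into the extraembryonic ectoderm, a pool of stem-like cells kept dividing by FGF and NODAL signals from the epiblast, with Cdx2, Eomes, Elf5 and Esrrb among its transcription factors. Cells farther from the epiblast form the ectoplacental cone, marked by Ascl2, Hand1 and Plac1, and the outermost cells become giant cells that copy their DNA without dividing.

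Of the 4 markers given for the label, Tfap2c, Rhox6 and Rhox9 chose the cells, so Elf5 is the one that bears on the label. In UMIs per 1000000 UMIs (CPM), Elf5 was at 320 at E5.0 and 314 at E5.25 in these cells, against 4.10 and 3.24 in epiblast cells and 13.9 and 10.996 in endoderm cells. Rhox6 was not higher here than in endoderm cells, at 48.9 and 39.6 CPM against 56.8 and 53.7. The trophoblast cells of the 2 libraries held 18256574 and 22351437 UMIs, with medians of 22465 and 23914 UMIs, 4748 and 4947 genes and 3.07% and 3.10% mitochondrial UMIs per cell. No trophoblast barcode was shared between the libraries, and 8 barcodes were shared over all cells. Of 12 markers of visceral endoderm outside the rule none reached 10 CPM in either library, and their sum was 26.5 CPM at E5.0 and 15.8 at E5.25. It moved the same way in epiblast cells (31.6 and 16.9 CPM) and the other way in endoderm cells (3781 and 4817). For 10 epiblast markers outside the rule, of which 5 passed 10 CPM, the sum was 956 and 821 CPM, against 3602 and 3443 in epiblast cells. The highest were Pou3f1 (317 and 268 CPM), Utf1 (298 and 251) and Dnmt3b (235 and 223). In epiblast cells these were at 457 and 435, 595 and 514, and 1692 and 1784 CPM. Nanog, Fgf4, Fgf5, Tdgf1 and Igfbp2 were each under 10 CPM in trophoblast. For 12 markers of uterine stroma and decidua the sum was 2.57 and 3.22, with 6 and 5 of them at 0 UMIs.

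The rule itself left cells close to its edge. At E5.0 89 and at E5.25 86 trophoblast cells had a trophoblast sum of 5 to 6, while 90 and 94 cells fell just outside with a sum of 4 to 5. Another 131 and 175 cells were left out for Prl3d UMIs alone. Trophoblast cells made up 11.9% of the kept cells at E5.0 [11.02, 12.7] and 18.8% at E5.25 [17.6, 20.0], as counted by genes that chose them.

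Across the 7696 genes with at least 10 CPM in either library, the 2 stages were close. A summed level cannot tell fewer cells with a gene's RNA from less RNA per cell. The median log2 ratio, taken on CPM plus 10, was 0.01, and the central 95% of genes ran from −0.33 to 0.32. Higher at E5.25 were 52.9% of these genes, the share to set beside the counts of list members below. Only 3 genes were at least 2-fold higher at E5.25 (0.039%) and 11 were at least 2-fold lower (0.143%). At 1.5-fold the counts were 73 higher (0.949%) and 66 lower (0.858%). For comparison, 156 genes were at least 2-fold higher (1.96%) and 395 lower (4.97%) in trophoblast from E4.75 to E5.0, and 118 were higher (1.49%) and 41 lower (0.518%) from E5.25 to E5.5. These neighbouring comparisons share a library with the one described, and depth per cell differed more between their libraries: the median was 38655 UMIs at E4.75 and 5809 at E5.5.

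**Figure D1:**
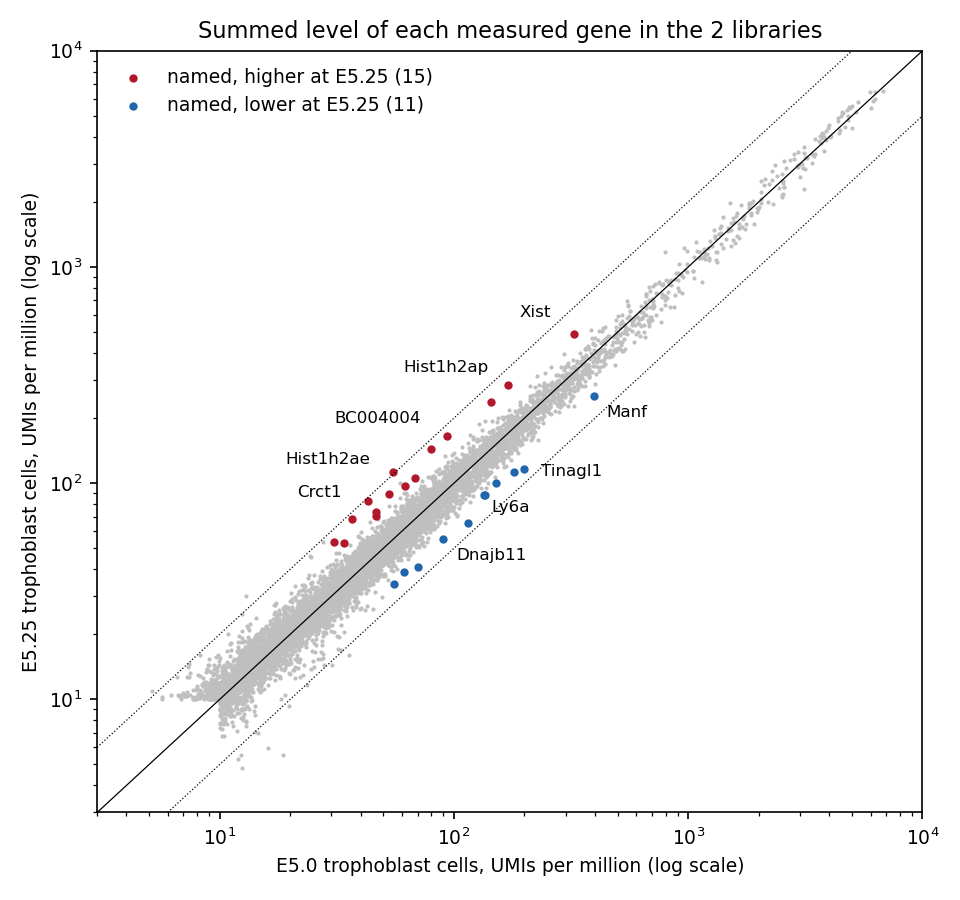
Summed level of each of the 7696 measured genes in trophoblast cells at E5.0 (x axis) and E5.25 (y axis), in CPM on log scales. Each grey point is a gene, red and blue points are the 15 and 11 genes named by rule as higher and lower, the solid line marks equal levels and the dotted lines 2-fold. Nearly all points lie between the dotted lines, and Hist1h2ae sits on the upper one at 55.2 and 113 CPM.

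The genes past 2-fold were mostly low in level. The 3 higher ones were Nppb, the natriuretic peptide B gene (12.9 CPM at E5.0 and 30.2 at E5.25), Tmem205, a membrane protein gene (5.15 and 10.9), and Hist1h2ae. For Nppb, 63.7% of the E5.25 UMIs came from 5 cells, and 334 of its 675 UMIs came from a single cell. The lower ones included Chac1 and Trib3, both targets of the stress factor ATF4, the cytokine gene Il24 (30.2 and 14.5 CPM), the water channel gene Aqp3 (19.8 and 9.35), and Fbxo15, an F-box gene known from pluripotent cells (35.7 and 16.1). Nlrp4e, Apbb1ip, BC023719 and Spink1 were also lower, each under 25 CPM. The endoderm genes Lrp2 (16.1 and 5.95 CPM) and Cubn (12.4 and 4.83) complete the count, but both were used to choose the cells. Spink1 and Cubn were at 1450.5 and 2935 CPM in endoderm cells at E5.0, and the visceral endoderm marker sum given above moved the same way. The part of RNA from endoderm cells in these levels was not tested.

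The most abundant replication-dependent histone genes were higher at E5.25. These genes supply the histones that package newly copied DNA, and their mRNAs end at a conserved stem-loop in place of the poly(A) tail. Hist1h2ae, an H2A gene (chr13:23570517-23571220, GRCm38, GENCODE M21), was at 55.2 CPM [51.8, 58.7] at E5.0 and 113 [108, 117] at E5.25, 2.04-fold higher [1.90, 2.20]. Hist1h2ap, another H2A gene (chr13:21833026-21833507), was at 170.1 and 285 CPM, 1.67-fold higher [1.60, 1.75]. The linker histone gene Hist1h1b (chr13:21779883-21780625) was at 79.7 and 143 CPM, 1.80-fold higher [1.69, 1.92]. In the family, a list drawn up after the values were seen, 12 members were measured, with a median log2 ratio of 0.50, and 9 of them were at least 1.5-fold higher. Of the 12, 5 passed 10 CPM at E5.25 alone and so had to be higher. The 7 that passed it at E5.0 were all higher, with a median of 0.69. With no minimum level the median over 58 members was 0.10. Of the broader histone list 13 of 17 were higher (median 0.30), and of the 14 that passed 10 CPM at E5.0, 10 were (median 0.20). Among the replication-independent variants, H3f3b was at 1913 and 1581 CPM, and H2afz at 3799 and 3426. The other such variants are not given here.

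The stem-loop sequence, found as searched in part of the measured members, is shown for 3 of them, the highest H2A gene and 2 that differ at its variable base. The stem-loop is in capitals, written as DNA from the GENCODE M21 transcripts with 5 flanking bases (3 after the stem-loop for Hist1h2ap, whose transcript model ends there).
Hist1h2ap: aaaaaGGCTCTTTTCAGAGCCatc
Hist1h3c: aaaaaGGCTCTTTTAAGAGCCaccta
Hist2h2ac: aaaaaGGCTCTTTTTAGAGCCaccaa
The pattern, a stem of GGCTCT and AGAGCC around a loop of TTTN searched on the transcript strand, is held by 7 of the 12 measured family members and by 36 of all 55341 genes with a transcript (0.0651%). Hist1h1b is not among these 7. Their transcript models run on past the stem-loop, from 3 bases in Hist1h2ap to 4884 in Hist1h1d. The molecule captured was polyA RNA by the labels, so the counts cover those histone transcripts that were captured that way. Reads of near-identical histone copies may be split between genes by the counting, which makes the level of a single copy uncertain.

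Over the 12 members measured in trophoblast, the histone median was higher on both sides of the lineage than outside it. The median log2 ratio of the family was 0.49 in cells of the extraembryonic ectoderm side and 0.42 in cells of the ectoplacental side (defined below), against 0.23 in epiblast cells and 0.06 in endoderm cells. These medians include the 5 members that entered through their E5.25 trophoblast level alone, which favours a higher value in trophoblast. The difference between lineages was not tested. The histone difference did not come with a higher level of the S phase list, which holds the replication factors: 7 of its 29 genes were higher at E5.25, with a median of −0.10. Slbp, which binds the histone stem-loop, was at 209 and 185 CPM, Pcna, the replication clamp, at 295 and 270.0, and Rrm2, a subunit of ribonucleotide reductase, at 296 and 256. Hist1h2ap was at 107 CPM at E4.75 and 80.0 at E5.5, with its highest value of the 4 libraries at E5.25, while Hist1h1b was higher at E4.75, at 205 CPM, than at E5.25.

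By the naming rule (at least 50 CPM in the higher library, 1.5-fold, and at least 0.2 of the level in epiblast and in endoderm cells), 15 genes were named as higher and 11 as lower, out of 16 and 11 that qualified. Beyond the histones, the higher group held genes of several kinds. Fam162a, which encodes a hypoxia-induced mitochondrial protein (chr16:36043761-36071594), was at 143 and 238 CPM, 1.66-fold higher [1.59, 1.75]. BC004004 (chr17:29268788-29314065) was at 93.01 and 166 CPM, 1.78-fold higher [1.68, 1.89]. Both genes were also higher in epiblast cells, by 1.71-fold and 1.85-fold, and in endoderm cells, by 1.42-fold and 1.51-fold.

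Of the remaining named higher genes, 5 lie over more than 100 kb of genome. These are Camk1d, a calmodulin-dependent kinase gene (36.8 and 68.2 CPM), Immp2l, a subunit of a mitochondrial peptidase (52.6 and 89.2), Nr6a1, an orphan nuclear receptor gene that represses Pou5f1 (61.7 and 97.1), Wwox, an oxidoreductase gene at a fragile site (46.7 and 73.5), and AW554918 (34.0 and 53.1). Neat1, the long non-coding RNA of nuclear paraspeckles, was at 30.7 and 53.4 CPM, with 31.4% and 30.7% of its UMIs in 5 cells. None of these 6 was over 100 CPM in either library.

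The named higher gene with the most uneven spread was Crct1, a gene of the epidermal differentiation cluster (chr3:93014205-93015687). Its level was 42.8 CPM at E5.0 and 82.3 at E5.25, but its UMIs came from 22 of 653 cells and 19 of 758. The 5 highest cells held 85.9% and 90.2% of them, and a single E5.25 cell held 816 of 1840. A UMI was seen in 3.37% and 2.51% of trophoblast cells (median depths 22465 and 23914 UMIs), against 2.44% and 1.43% of epiblast cells (18905 and 22590.5 UMIs). At E5.5 Crct1 was at 0.0674 CPM. Its log2 ratio of 0.81 was 0.17 without the 5 cells with most of its UMIs, 0.11 with a lower limit on detected genes and 0.23 with cells thinned to 8000 UMIs. On the extraembryonic ectoderm side, where it was under 10 CPM, the level at E5.25 was 0.073 of that at E5.0. The summed difference in Crct1 therefore rests on a few cells.

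**Figure D2:**
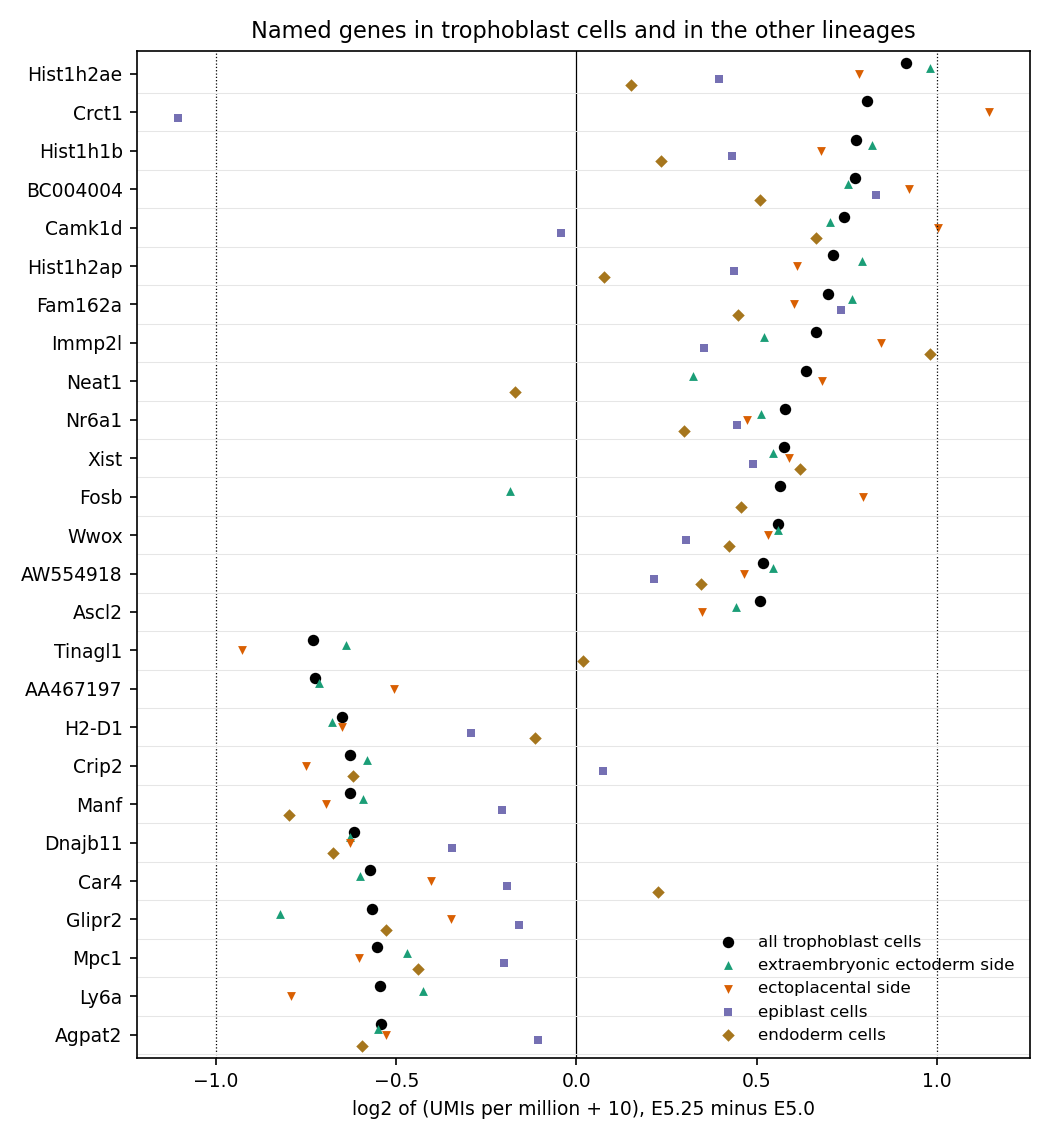
Log2 ratio of E5.25 over E5.0, on CPM plus 10 (x axis), for the 26 named genes (rows), in all trophoblast cells (black), the 2 sides of the lineage (triangles), epiblast cells (squares) and endoderm cells (diamonds). A point is left out where the gene was under 10 CPM in both libraries. The triangles lie on the same side of 0 as the black point for all genes shown but Fosb, whose log2 ratio was 0.80 on the ectoplacental side and −0.19 on the other, and no side point is drawn for Crct1 on the extraembryonic ectoderm side.

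The named lower genes had varied roles. Tinagl1, a secreted matrix protein gene (chr4:130164454-130175122), was at 199 CPM at E5.0 and 116 at E5.25, 1.72-fold lower [1.63, 1.81]. AA467197 (chr2:122636986-122641191) was at 114 and 65.2 CPM, and H2-D1, a class I histocompatibility gene, at 69.9 and 40.8. Ly6a, which encodes the surface antigen Sca-1, was at 151 and 100.2 CPM, and Crip2, a LIM domain gene, at 180 and 113. Car4, a membrane carbonic anhydrase, was at 136 and 88.0 CPM, Mpc1, a subunit of the mitochondrial pyruvate carrier, at 134 and 88.2, Glipr2 at 55.3 and 34.0, and Agpat2, an enzyme of phosphatidic acid synthesis, at 61.1 and 38.8. For both of the surface and matrix genes the epiblast gives the background at the median depths given for Crct1: a UMI was found in 93.4% and 84.6% of trophoblast cells for Tinagl1 and in 4.88% and 4.28% of epiblast cells, and for Ly6a in 87.3% and 76.5% against 2.59% and 1.74%.

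All 11 named lower genes were lower on both sides of the lineage, and of the 15 higher ones 13 were higher on the extraembryonic ectoderm side and 15 on the ectoplacental side; the sides are parts of the cells that chose the genes. In epiblast cells 8 of the lower genes reached 10 CPM, and their E5.25 levels were 0.676 to 1.06 of those at E5.0, with 7 lower. In endoderm cells 9 did, at 0.487 to 1.17, with 7 lower. Of the higher genes 12 reached 10 CPM in epiblast, with 10 higher, and 13 in endoderm, with 12 higher. Among all measured genes 51.5% were higher on the extraembryonic ectoderm side and 50.1% on the ectoplacental side. In epiblast 49.2% of them were higher, and in endoderm 53.3%. These lineages share the libraries, and the differences between lineages were not tested.

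Genes for proteins of the endoplasmic reticulum (ER) that fold and admit secreted proteins were lower together. Manf, a secreted factor induced by unfolded protein (chr9:106838312-106891979), was at 397 CPM [387, 406] at E5.0 and 253 [246, 259.7] at E5.25, 1.57-fold lower [1.51, 1.62]. Dnajb11, a co-chaperone of the ER chaperone BiP (chr16:22857845-22879634), was at 90.2 and 55.3 CPM, 1.63-fold lower [1.51, 1.76]. Hspa5, which encodes BiP itself, was at 313 and 241 CPM, Calr, the lectin chaperone calreticulin, at 443 and 354, and Creld2 at 40.1 and 26.6. Of 42 genes of ER folding and entry, a list drawn up after the values were seen, 36 were lower at E5.25, with a median log2 ratio of −0.17, and 4 were at least 1.5-fold lower. Over all measured genes 52.9% were higher. The median of the ER list was −0.19 and −0.21 on the 2 sides, −0.13 in epiblast and −0.28 in endoderm, where none of the 42 was higher. The level was not lower at every later stage: Manf was at 399 CPM and Hspa5 at 451 at E5.5.

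Genes of the integrated stress response, the program that ATF4 drives when amino acids or folding fail, were lower as a list in the pooled cells. Chac1, which degrades glutathione, was at 18.6 CPM [16.7, 20.7] at E5.0 and 5.503 [4.57, 6.57] at E5.25, 3.38-fold lower [2.75, 4.19], and Trib3, a pseudokinase gene, was at 14.2 and 7.07. Both were lower on each side: on the ectoplacental side Chac1 was at 12.8 and 4.54 CPM and Trib3 at 17.0 and 11.2, and on the extraembryonic ectoderm side at 21.6 and 6.10 and at 13.03 and 4.81. In epiblast cells they were at 0.344 and 0.522 of their E5.0 level. Asns, asparagine synthetase, was at 149 and 107 CPM, Psph and Psat1, enzymes of serine synthesis, at 101 and 72.6 and at 240.0 and 190.0, and Atf4 itself at 183 and 149.7. Of 23 measured genes of the list 20 were lower, with a median of −0.17. Chac1 and Trib3 were the 2 members that passed 10 CPM at E5.0 alone, and so had to be lower. On the extraembryonic ectoderm side 0 of 23 were higher (median −0.24), while on the ectoplacental side 12 of 23 were (median 0.02). Over all measured genes 51.5% and 50.1% were higher on these sides. The difference between the sides was not tested. In epiblast cells 12 of 23 were higher (median 0.02), and in endoderm cells 6 (median −0.05). Mthfd2, a mitochondrial folate enzyme, shows the spread, at 217 and 151 CPM on the extraembryonic ectoderm side and 189 and 194 on the ectoplacental side. Of the amino acid transporters 9 of 12 were lower (median −0.19), and 3 of 12 were higher on the ectoplacental side (median −0.08), 2 in epiblast (−0.16) and 2 in endoderm (−0.24): Slc7a8 was at 121 and 87.4 CPM, Slc3a2 at 254 and 212, and Slc38a2 at 253 and 216.

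Start regions of some members of the ER and ATF4 lists are shown as examples of known response elements. Whether the elements have a part in the differences was not tested. The sequences are from RefSeq (GRCm38.p6), from up to 40 bases before the element to at most 40 after it and never past the start site, 5′ to 3′ in the direction of the gene, with the element in capitals.
Chac1: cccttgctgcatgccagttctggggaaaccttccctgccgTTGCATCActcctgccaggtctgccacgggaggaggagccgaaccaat
Asns: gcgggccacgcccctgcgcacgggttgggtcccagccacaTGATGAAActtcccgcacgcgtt
Hspa5: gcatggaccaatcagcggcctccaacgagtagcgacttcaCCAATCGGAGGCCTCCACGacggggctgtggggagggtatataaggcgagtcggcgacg
Creld2: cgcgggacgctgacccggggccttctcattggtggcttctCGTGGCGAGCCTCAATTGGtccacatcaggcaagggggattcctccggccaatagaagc
They lie at chr2:119351009-119351096 (plus strand), chr6:7693210-7693272 (minus), chr2:34771985-34772083 (plus) and chr15:88819480-88819578 (plus). In Chac1 and Asns the capitals mark TGATGNAA, the core of the amino acid response element, 193 and 23 bases before the start site and on the opposite strand in Chac1. In Hspa5 and Creld2 they mark the ER stress response element, CCAAT and CCACG with any 9 bases between them, 65 and 126 bases before the start site and on the opposite strand in Creld2. Both patterns were searched on both strands from 250 bases before to 50 after each start site. TGATGNAA was found in 7 of the 17 stress response list members with a start region in the table (Aars, Asns, Chac1, Gars, Iars, Trib3 and Yars) and in 4.51% of all 27025 genes. The ER stress response element was found in 8 of 33 members of the ER list (Calr, Canx, Creld2, Dnajc3, Hsp90b1, Hspa5, Pdia6 and Syvn1) and in 37 of all 27025 genes (0.137%). A match describes the letters only. Holding the element did not go with a lower level in every case, since Canx was at 326 and 333 CPM and Iars at 106 and 108.

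Trophoblast cells were next placed along the axis from extraembryonic ectoderm to ectoplacental cone. A cell went to the extraembryonic ectoderm side when its UMIs of Elf5, Cdx2, Eomes, Esrrb, Bmp4 and Sox2 outnumbered those of Ascl2, Hand1, Plac1, Tpbpa and Flt1, and to the ectoplacental side when the reverse held. This is a range and not a pair of types: 94 cells at E5.0 and 106 at E5.25 had a share between 0.4 and 0.6. The extraembryonic ectoderm side held 440 cells at E5.0 (67.4% [63.6, 71.0]) and 447 at E5.25 (59.0% [55.4, 62.5]). The ectoplacental side held 198 (30.3% [26.8, 34.0]) and 296 (39.1% [35.6, 42.6]), and 15 cells of each library were tied. The share depends on the rule: with a trophoblast sum of at least 10 the extraembryonic ectoderm side held 38.4% at E5.0 and 31.3% at E5.25, less than the other side. Median depth was 22624.5 and 24354 UMIs on the former side and 22693.5 and 22850.5 on the latter. At E4.75 and E5.5 the extraembryonic ectoderm side held 47.9% and 38.7%, so the E5.0 share was the highest of the 4 libraries. How many embryos and which regions of them entered each library cannot be told apart from a change in the share.

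**Figure D3:**
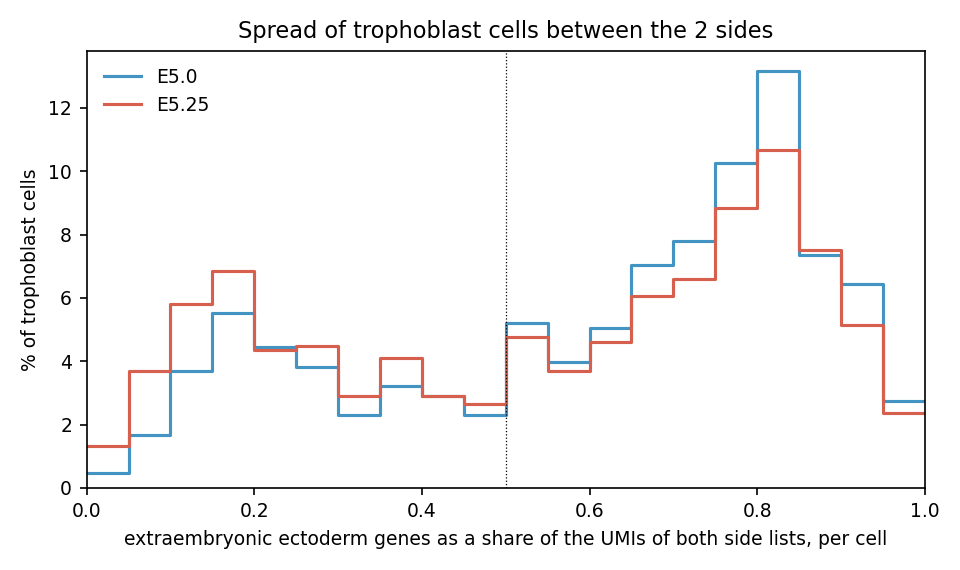
Share of a cell's side-gene UMIs that came from the extraembryonic ectoderm genes (x axis, 0 to 1), as the percentage of trophoblast cells in each bin (y axis), for E5.0 (blue) and E5.25 (red). The dotted line at 0.5 divides the sides; both libraries have a group of cells above it and a smaller group below it, and the lower group is larger at E5.25 (39.1% against 30.3% of cells).

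The genes that chose or split the cells are given as a description. Phlda2, an imprinted gene that limits placental growth, was the highest of them, at 795 CPM at E5.0 and 1171 at E5.25, and at 239 at E4.75 and 2090.3 at E5.5. On the extraembryonic ectoderm side it was at 503 and 619 CPM, and on the ectoplacental side at 1428 and 2123. Tfap2c was at 248 and 286 CPM, Gata3 at 116 and 112, Wnt7b at 78.1 and 76.4, Rhox6 at 48.9 and 39.6, and Rhox9 at 11.2 and 8.63. The stem cell factors Elf5 (320 and 314), Eomes (305 and 280.2) and Esrrb (29.4 and 28.5) were close, while Cdx2 was at 69.8 and 51.1 and Bmp4, a signal to the epiblast, at 92.7 and 69.2. On the extraembryonic ectoderm side alone Eomes was at 358 and 366 CPM, and Cdx2 at 98.6 and 76.8. Hand1 was at 564 and 623 CPM, Plac1 at 108 in both, and Tpbpa, a later marker of spongiotrophoblast, had 0 UMIs in both libraries, which allows up to 0.202 and 0.165 CPM.

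Ascl2, the imprinted factor needed for the ectoplacental lineage and itself a side gene, met the naming rule, at 46.4 CPM [43.3, 49.6] and 70.3 [66.9, 73.9], 1.52-fold higher [1.39, 1.65]. It was higher on both sides, at 14.9 and 23.8 CPM and at 116 and 150.2. The values over the 4 libraries from E4.75 were 22.8, 46.4, 70.3 and 140 CPM.

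**Figure D4:**
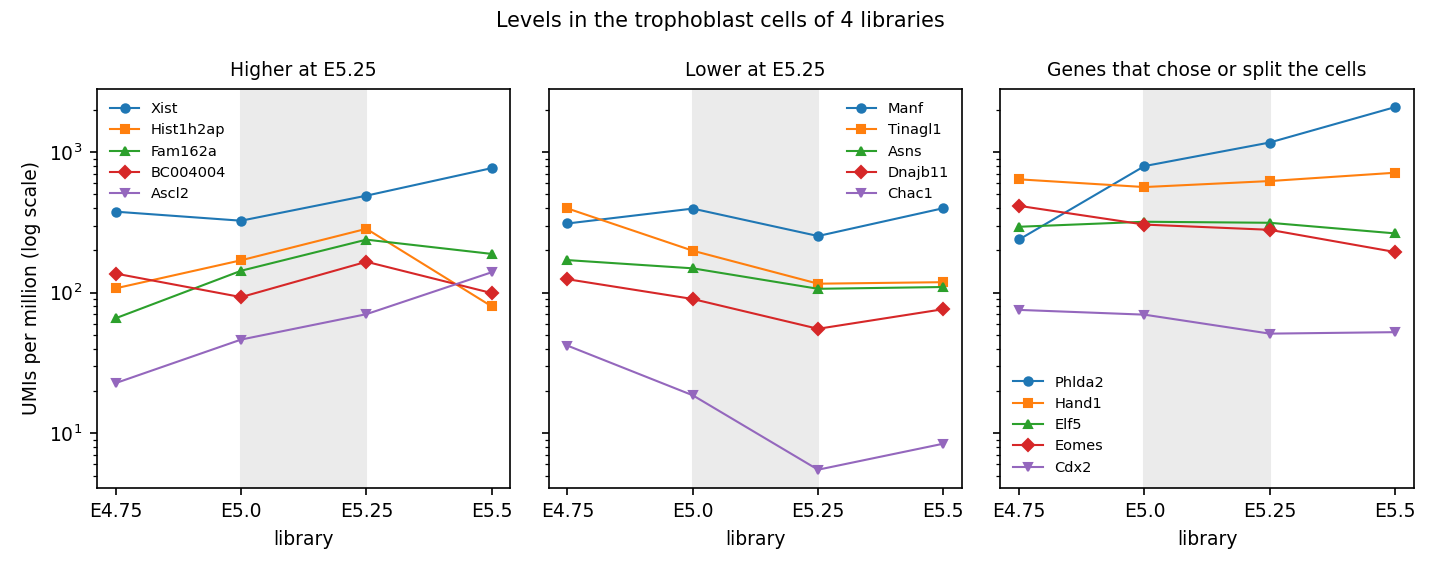
Levels in trophoblast cells of the 4 libraries from E4.75 to E5.5 (x axis), in CPM on a log scale (y axis), for 5 genes higher at E5.25, 5 lower, and 5 that chose or split the cells. Grey marks the step described. Ascl2 and Phlda2 are higher at each later library, Tinagl1 is lower up to E5.25 (398, 199 and 116 CPM), and Hist1h2ap and BC004004 are at their highest at E5.25.

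The stage lists of the lineage hold some of the genes that split the cells. Of 22 measured extraembryonic ectoderm and trophoblast stem cell genes 9 were higher at E5.25 (median −0.07), and of the 16 that did not split the cells 8 were (median −0.037). Klf5, a factor of trophectoderm and stem cells, was at 146 and 122 CPM, and Fgfr2, the receptor for the FGF4 signal that keeps the stem cells, was at 231 and 285. Of 16 ectoplacental genes 10 were higher (median 0.06), and of the 13 that did not split the cells 7 were (median 0.048): Nrk, a kinase gene of the later placenta, was at 6.96 and 10.7 CPM, Fosl1 at 20.98 and 14.1, and Plet1 at 207 and 169.7. Nrk was among the 2 members that passed 10 CPM at E5.25 alone and so had to be higher, and 1 other passed at E5.0 alone. For the 14 at 10 CPM or more at E5.0, 8 were higher (median 0.026). Of 6 measured giant cell genes 3 were higher. Of 17 genes of early trophectoderm, the outer layer of the blastocyst, 12 were lower (median −0.12), among them Fabp3, a fatty acid binding protein (1145 and 848 CPM), Krt18 (514 and 415) and Aqp3. Aqp3 was the 1 member that passed 10 CPM at E5.0 alone and so had to be lower. On the extraembryonic ectoderm side the keratin genes Krt8 and Krt18 were at 273 and 188 CPM and at 453 and 331, and on the ectoplacental side at 659 and 661 and at 645 and 556. Of the 4 measured keratins 1 was higher on the former side (median −0.48) and 2 on the latter (median −0.10), and the difference between the sides was not tested. Rhox5, the most abundant Rhox homeobox gene, was at 1519 and 1602 CPM. Arid3a, a factor of placental differentiation, was at 20.98 and 33.6 CPM, and was higher on both sides.

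Imprinted genes were higher as a group at E5.25. These genes are read from 1 parental copy only, and many govern the growth of the placenta. Of 26 measured members 23 were higher, with a median log2 ratio of 0.23, although a single member, Ascl2, reached 1.5-fold. Of the 25 that did not split the cells 22 were higher (median 0.22). H19, a maternally read non-coding RNA, was at 682 and 805 CPM, Sfmbt2, which carries a placental microRNA cluster, at 554 and 660.0, Igf2, a fetal growth factor, at 115 and 154, Peg10, a retrotransposon-derived gene needed for the placenta, at 146 and 194, and Cdkn1c, a cell cycle inhibitor, at 39.8 and 52.7. Meg3 (192 and 187), Tssc4 (14.7 and 13.9) and Snrpn (31.0 and 26.1) were the 3 that were not higher. On the extraembryonic ectoderm side 25 of 26 were higher and on the ectoplacental side 21, whereas in epiblast cells 10 were (median −0.04) and in endoderm cells 22 (median 0.22). Over all measured genes 51.5%, 50.1%, 49.2% and 53.3% were higher in these cells, in the same order. Whether trophoblast and epiblast differ in this was not tested.

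Signalling lists were mostly near the median of all genes, of which 52.9% were higher at E5.25. Of 13 measured WNT pathway genes 11 were higher at E5.25 (median 0.18): Znrf3, which removes WNT receptors, was at 68.7 and 90.4 CPM, the co-receptor gene Lrp6 at 36.3 and 45.1, and Tcf7l1, a repressor of the pathway, at 162 and 198. Of 16 FGF and ERK genes 5 were higher (median −0.04), with the feedback inhibitor Spry1 at 13.0 and 7.83 CPM and the cyclin gene Ccnd1 at 39.7 and 26.1, both over 1.5-fold lower. Spry1 was among the 2 members that passed 10 CPM at E5.0 alone and so had to be lower. The NODAL list (7 of 11 higher, median 0.01) and the BMP list (4 of 11, median −0.04) had medians close to that of all genes. In each of these lists 1 member passed 10 CPM at E5.0 alone and so had to be lower. Bmp4 split the cells, and of the other 10 BMP genes 4 were higher (median −0.020). Within the BMP list, the ligand gene Bmp8b was at 64.9 and 50.3 CPM and the receptor gene Bmpr1a at 64.2 and 83.9. Of 12 growth factor genes and their receptors 7 were higher (median 0.10), Igf2 and Igf1r (40.1 and 52.0) among them, while the receptor gene Egfr was at 37.5 and 28.5.

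Glycolysis genes were slightly higher at E5.25. Of 20 glycolysis genes 19 were higher (median 0.12), with Gapdh at 1364.5 and 1516 CPM, Pgk1 at 709 and 818, the glucose transporter gene Slc2a3 at 83.8 and 114, and Pdk1, which holds pyruvate back from mitochondria, at 25.3 and 37.7; Pgam1 was the exception at 1052 and 962. In the hypoxia list, which shares genes with it, 12 of 14 were higher (median 0.11): Egln1, an oxygen sensor, was at 82.3 and 108 CPM, and Higd1a at 551 and 666. Of 23 cholesterol synthesis genes 19 were higher (median 0.05), and on the ectoplacental side all 23 were (median 0.20), such as Fdps at 139 and 199.9 CPM. Over all measured genes 52.9% were higher in the pooled cells and 50.1% on the ectoplacental side. Oxidative phosphorylation was near the background, with 23 of 36 higher (median 0.06). Of 26 ribosome biogenesis genes 20 were lower (median −0.08), and of 30 genes of splicing and mRNA export, another list drawn up after the values were seen, 26 were (median −0.09).

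**Figure D5:**
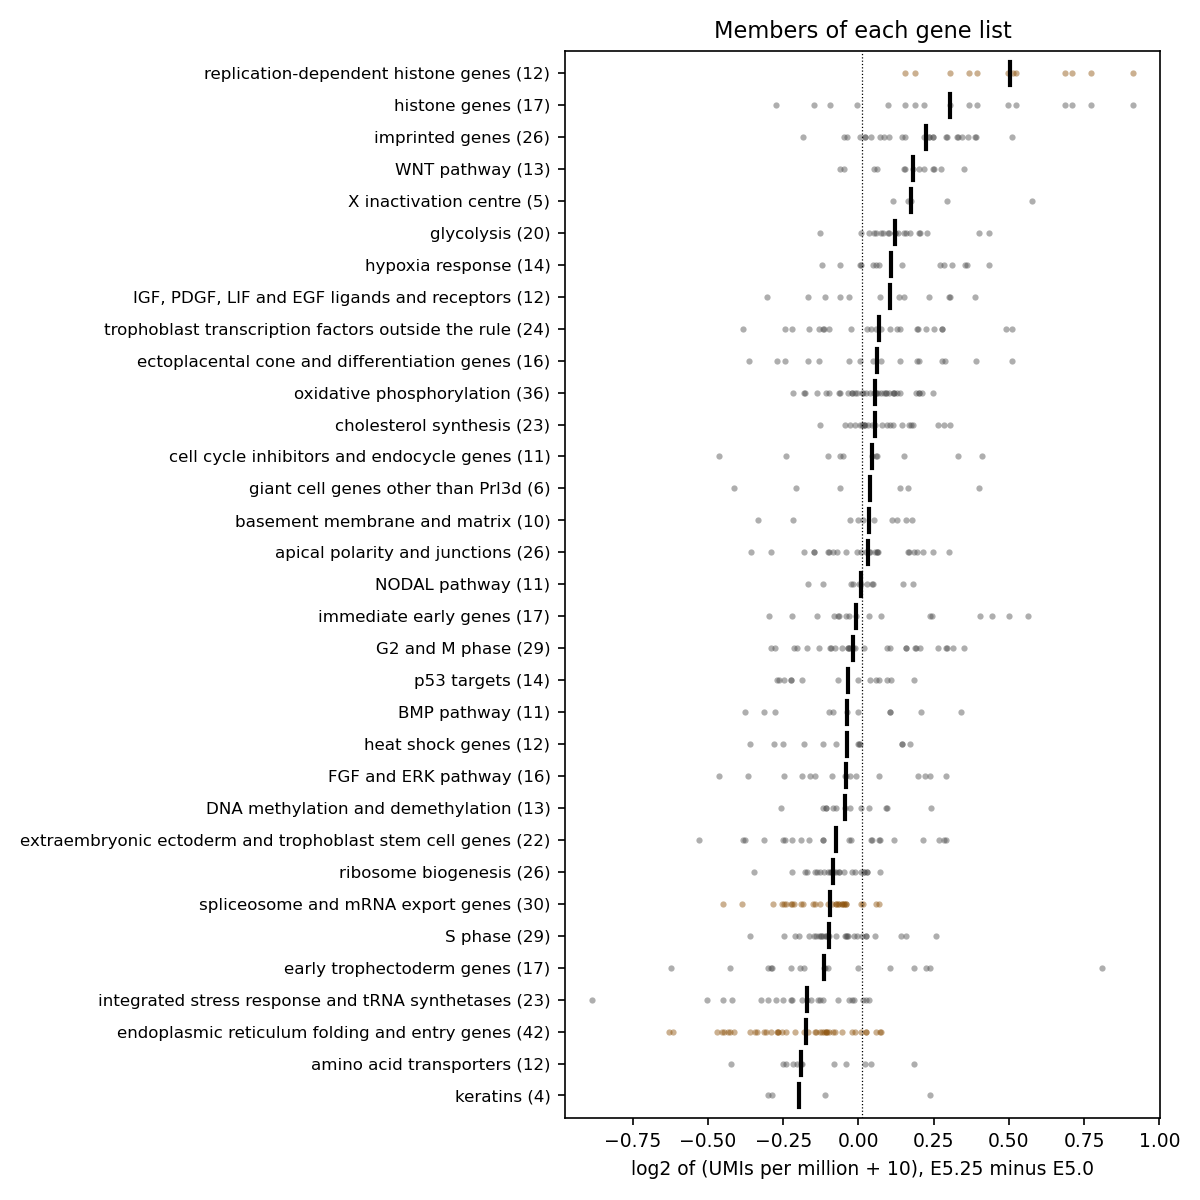
Log2 ratio of E5.25 over E5.0 in trophoblast cells, on CPM plus 10 (x axis), for each measured member (points) of the gene lists with at least 4 measured members (rows, number in brackets), with the list's median as a black bar and the median of all 7696 genes (0.01) as a dotted line. Lists in brown were drawn up after the values were seen; the medians run from 0.50 for the replication-dependent histones to −0.20 for the keratins.

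Immediate early genes, which respond within minutes to growth signals and also to handling of cells, differed between the sides. Fos was at 295 CPM at E5.0 and 394 at E5.25, Fosb at 67.9 and 105 (1.55-fold higher [1.45, 1.66]) and Jun at 43.8 and 66.1. On the ectoplacental side Fos was at 567 and 813 CPM, Fosb at 133 and 238, and Jun at 71.0 and 129, while on the extraembryonic ectoderm side they were at 168 and 152, 34.0 and 28.7, and 27.4 and 29.4. The difference between the sides was not tested. The other members did not follow: of 17 measured genes 8 were higher (median −0.01), and Junb was at 148 and 139 CPM, Jund at 326 and 278 and Ier2 at 106 and 101. Fos was also 1.83-fold higher in epiblast and 1.36-fold in endoderm cells. The part that dissociation of the embryos has in these levels was not tested.

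Beside the S phase list, which was lower as given above, the cell cycle lists lay near the median of all genes. Of 29 genes of the G2 and M phases 13 were higher (median −0.02). Among inhibitors and genes of the endocycle, by which giant cells copy DNA without dividing, 6 of 11 were higher (median 0.04): Gmnn, which blocks a second round of copying, was at 375 and 316 CPM, and Cdkn2a at 7.50 and 13.2. Cdkn2a was among the 2 members that passed 10 CPM at E5.25 alone and so had to be higher. For the 9 at 10 CPM or more at E5.0, 4 were higher (median −0.05). Of 14 p53 targets 6 were higher (median −0.03), and 1 passed 10 CPM at E5.0 alone and so had to be lower.

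Xist, the non-coding RNA that silences an X chromosome in female cells (chrX:103460366-103483254), was at 325 CPM [317, 334] at E5.0 and 490.1 [481, 499] at E5.25, 1.51-fold higher [1.46, 1.56]. It was higher on both sides, at 313 and 461 CPM and at 352 and 534, and in epiblast by 1.41-fold and endoderm by 1.55-fold. In trophoblast the paternal X is the silenced copy. The share of cells with a Y-linked UMI (Ddx3y, Eif2s3y, Uty or Kdm5d) was 48.4% [44.5, 52.3] at E5.0 and 43.5% [39.97, 47.2] at E5.25, with intervals that overlap. Such a UMI does not give the sex of each cell: 64 and 74 cells held both it and an Xist UMI. The part of the mix of cells by sex in the Xist level was not tested. In the cells without a Y-linked UMI Xist was at 619 and 850.1 CPM, 1.37-fold higher, and in those with one at 71.0 and 98.0. Reads of Xist and its overlapping antisense gene Tsix (34.1 and 37.8 CPM) may not be told apart, with the strand used in counting not given in the sources used here. The other measured genes of the X inactivation centre, Jpx, Ftx and Rlim, were higher too, with Rlim at 135 and 152 CPM. In this list of 5 measured genes, 1 passed 10 CPM at E5.25 alone and so had to be higher.

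Long genes were higher as a class. By the span of the gene in GENCODE M21, the median log2 ratio in trophoblast was −0.05 for 1718 genes under 10 kb, −0.04 for 2483 of 10 to 30 kb, 0.04 for 2479 of 30 to 100 kb, 0.13 for 869 of 100 to 300 kb and 0.20 for 145 over 300 kb. The order was nearly the same in the other lineages of the same 2 libraries: the shortest and longest classes were at −0.04 and 0.14 in epiblast and −0.06 and 0.27 in endoderm. Of the named higher genes 5 of 15 spanned over 100 kb, and of the lower ones 0 of 11. What part gene length has in the values of these 5, or of the WNT and imprinted lists, was not tested.

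The named genes were also followed in the libraries on either side of the step. Of the 15 named higher genes 10 were above their E5.0 level at E5.5 as well, and of the 11 lower ones 10 were below it; Manf was the exception among the latter. Beyond their E5.25 level in the same direction were 4 of the 15 and 7 of the 11 at E5.5. Of the same genes 6 of 15 had already been higher at E5.0 than at E4.75, and 9 of 11 lower. AA467197 and Ly6a were lower again at E5.5, at 26.6 and 25.3 CPM, while all 3 named histone genes were at E5.5 below their E5.0 level. These counts use libraries that share E5.0 or E5.25 with the comparison that chose the genes, and are given as a description.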

How the data were processed

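Single-cell 3′ libraries of polyA RNA, 1 per stage, were used as the UMI count matrices the authors deposited, whole-number counts whose file headers give Cell Ranger 7.1.0. Builds hg38, mm10 and GRCm38 are listed with no role in the submitters' processing notes, with annotation release, alignment settings, strand and cell calling not given in the sources used here. Of 32285 genes, 32158 matched GENCODE M21 by identifier.

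Cells were chosen by the stated rule, and UMIs were summed per library and lineage and expressed per 1000000 UMIs (CPM). Epiblast cells had an epiblast sum of at least 5 and at least 2 times the trophoblast sum, with an endoderm sum under 10. Endoderm cells had an endoderm sum of at least 10, with epiblast and trophoblast sums each under 5. Levels carry exact Poisson intervals, shares exact Clopper-Pearson intervals, and folds exact binomial intervals, all 95%. Doublets were treated by the rule alone, with Scrublet removal as an alternative. Python 3.11.15, numpy 2.4.6, scipy 1.17.1, pandas 2.3.3 and scanpy 1.11.5 were used, and the scripts were tested on simulated data.

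Genes were named when they had at least 50 CPM in the higher library, differed 1.5-fold, differed 1.25-fold the same way with every cell weighted equally, and were at 0.2 or more of the level in epiblast and endoderm cells, up to 15 per direction, leaving out the genes that chose the cells, haemoglobin, ribosomal protein and mitochondrial genes, and gene models without a name. List members were named by size of ratio or level, and a few for their role after their values were seen. The members and lists were chosen with earlier results of these data known.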

Additional observations from a re-analysis of the deposited data

Results flagged for a closer look

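In 4 named genes with at least 10 CPM in both groups, the fold of E5.25 over E5.0 lay in opposite directions in 2 groups of cells from the same libraries, past a small set fold each way and with counting intervals on either side of 1. Genes whose interval in the other group holds 1 are not counted. Examples are Tinagl1 (0.582 in trophoblast and 1.01 [0.965, 1.06] in endoderm) and Camk1d (1.86 in trophoblast and 0.966 [0.909, 1.03] in epiblast). Smaller opposite differences and those at lower levels are not counted either. With 1 library per stage none of these differences was tested. Crct1 was 1.92-fold higher in trophoblast and at 0.046 of its E5.0 level in epiblast, where few cells had a UMI of it; its trophoblast value rests on a few cells, with a log2 ratio of 0.17 without the 5 highest against 0.81. Neat1 was 1.74-fold higher in trophoblast and at 0.848 of its E5.0 level in endoderm. Fosb was 1.79-fold higher on the ectoplacental side and at 0.844 on the extraembryonic ectoderm side. Car4 was at 0.648 of its E5.0 level in trophoblast and 1.17-fold higher in endoderm.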

How the results depend on the processing

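The 26 named genes gave 349 log2 ratios that moved by less than the counting interval of the value reported, 91 that moved further and 2 that reversed, both on the extraembryonic ectoderm side alone: Crct1 at −0.53 and Fosb at −0.19. Of the list medians 580 stayed within the central spread of the list's own members (for small lists, their whole range) and 15 moved; the cause was not tested. Counts of genes past a fold moved most with no minimum level. Genes at least 2-fold higher numbered 5 with 2500 detected genes required, 5 with doublets removed, 9 with a trophoblast sum of at least 10, 8 with stricter endoderm and epiblast limits, 11 with every cell weighted equally, 15 with cells thinned to 8000 UMIs, 1089 with no minimum level, 1 at a minimum of 50 CPM, 8 and 17 on the extraembryonic ectoderm and ectoplacental sides, and 5 with the sides weighted equally. At least 2-fold lower were 23 (trophoblast sum of 10), 28 (thinned), 858 (no minimum), 0 (50 CPM) and 33 (ectoplacental). At 1.5-fold, a threshold added after the data were seen, 136, 161, 2387, 18 and 152 were higher and 129, 142, 1517, 11 and 146 lower under these settings. The median of the replication-dependent histones was 0.79 with a pseudocount of 1 CPM, 0.19 with 50, 0.10 with no minimum and 0.77 at 50 CPM. Cholesterol synthesis was at 0.21 with a trophoblast sum of 10 and 0.20 on the ectoplacental side. After thinning, Rhox genes were at −0.077, DNA methylation at −0.11 and the X inactivation centre at 0.10, which was also 0.10 with a pseudocount of 50 and 0.091 on the extraembryonic ectoderm side. On that side immediate early genes were at −0.12 and keratins at −0.48. WNT genes were at 0.034 with no minimum and p53 targets at −0.26 at 50 CPM. The trophoblast share at E5.0 and E5.25 was 5.49% and 10.1% with a trophoblast sum of 10, 9.10% and 14.6% with the stricter limits and 14.2% and 23.1% with no limit on Prl3d. The extraembryonic ectoderm side then held 38.4% and 31.3%, 61.1% and 50.0%, and 56.1% and 48.3%, and 71.2% at E5.0 when cells over 0.7 were set against those under 0.3. It was lower at E5.25 in each of these settings. No paired analysis was possible because each stage has 1 library and the result comes from no test.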

Other observations

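Lists not described above lay near the median of all genes. Of 24 trophoblast transcription factors outside the rule 15 were higher at E5.25 (median 0.07), with Tead1, a partner of YAP, at 92.0 and 114 CPM and Gata2 at 50.2 and 60.3. Of the 24, 5 split the cells, and of the other 19, 13 were higher (median 0.076). In this list 1 member passed 10 CPM at E5.25 alone and so had to be higher. Likewise 1 passed at E5.0 alone and so had to be lower. Of 13 genes of DNA methylation 5 were higher (median −0.04), with Dnmt3b, a methylase of the early embryo, at 235 and 223 CPM and Tet1, which oxidises methylcytosine, at 58.4 and 70.8. Of 26 polarity and junction genes 15 were higher (median 0.03), although Epcam, a surface adhesion protein, was at 645 and 502 CPM while Cdh1 was at 425 and 444.0. Of 12 heat shock genes 5 were higher (median −0.04), and the inducible genes Hspa1a and Hspa1b were under 10 CPM in both libraries. Of 10 matrix genes 7 were higher (median 0.03).

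Marker sums of other cells in trophoblast were as follows. Maternal blood markers summed to 19.7 CPM at E5.0 and 23.0 at E5.25, of which Cd52 made up 17.2 and 20.6. Uterine epithelium markers summed to 81.6 and 77.0, of which Wfdc2 made up 68.5 and 70.3 and Spink1 12.4 and 5.55. In epiblast cells Wfdc2 was at 70.5 and 63.3 CPM, and in endoderm cells Spink1 was at 1450.5 at E5.0. Markers of parietal endoderm, an embryonic lineage, summed to 195 and 169, of which Sparc made up 137 and 107. Vessel markers summed to 102 and 107 CPM, of which Cdh5 made up 57.1 and 63.8, and Cdh5 was at 182 and 173 on the ectoplacental side.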
